A study of Mus musculus with 18 samples.

Results

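Anxa2 and S100a6 were described in mouse ovaries with and without the LHCTP transgene, through all 4 probe sets that the platform annotation assigns to either gene. These are 1 probe set per gene on each of the 2 chip types, out of 13179 probe sets and 6137 named genes in the series. Both genes were picked because a probe set of each stood at least 3-fold below every other array in the granulosa cell tumour, so the tumour values are a description with no test. RNA of whole ovaries had been hybridised to 1 array of chip A and 1 of chip B for each of 9 conditions, 18 arrays in all. Wild-type ovaries came from CF-1 mice and from CF-1xC57BL/6 hybrids, each at 2 and at 5 months. Untreated LHCTP transgenic ovaries came from the same strains and ages, and the pathology given is cystic for both strains at 2 months; at 5 months it is granulosa cell tumour for CF-1 and luteoma for the hybrid. The ninth condition was a CF-1 transgenic ovary of 5 months from a mouse given human chorionic gonadotropin (hCG), which acts on the luteinizing hormone receptor; it was labelled a luteoma.

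LHCTP mice hypersecrete luteinizing hormone, the pituitary hormone that drives ovulation and steroid synthesis. The labels name neither the promoter of the transgene nor how many animals an array stands for. Each condition was measured once per chip type, so every spread given below is a spread between conditions, and p-values measure that spread only. In whole ovary, fewer cells of a type and less RNA per cell cannot be told apart. The chip B tumour array carries another age in its description than in its title and source, which were followed.

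Annexin A2 binds phospholipid membranes in the presence of calcium. With its partner S100a10 it forms a complex at the cell surface and the cell cortex, where it links membranes to actin and serves as a site for plasminogen activation. S100a6, also called calcyclin, is a small calcium sensor of the S100 family that binds several annexins, annexin A2 among them, and other cytoplasmic proteins. Both are abundant in epithelial cells and fibroblasts.

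The start-site windows of both genes were read from the RefSeq promoter table (GRCm38.p6), because both genes stood low in the same ovary. Each runs 5′ to 3′ on the gene's plus strand from 250 bases before the start to 50 after it, at chr9:69453433-69453732 for Anxa2 and chr3:90612644-90612943 for S100a6, with motif matches in capitals.
Anxa2: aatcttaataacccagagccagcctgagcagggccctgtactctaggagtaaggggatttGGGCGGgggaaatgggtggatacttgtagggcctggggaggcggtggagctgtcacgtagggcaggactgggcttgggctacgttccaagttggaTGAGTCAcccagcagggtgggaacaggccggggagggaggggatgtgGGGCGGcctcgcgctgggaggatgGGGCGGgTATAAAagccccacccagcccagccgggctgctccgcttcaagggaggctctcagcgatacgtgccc
S100a6: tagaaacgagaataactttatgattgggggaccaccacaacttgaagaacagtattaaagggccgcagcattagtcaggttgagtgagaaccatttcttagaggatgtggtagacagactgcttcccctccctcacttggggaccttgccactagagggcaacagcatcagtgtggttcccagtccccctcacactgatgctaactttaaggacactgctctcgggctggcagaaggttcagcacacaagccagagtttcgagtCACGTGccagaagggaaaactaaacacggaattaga
Both strands were searched for TATAAA (the TATA box), GGGCGG (the GC box), TGANTCA (the AP-1 site), CACGTG (an E-box) and AAGGTCA (the site of NR5A nuclear receptors), and no marked matches overlap. The Anxa2 window held 1 TATAAA starting 17 bases before the start, 3 GGGCGG and 1 TGANTCA. These motifs occur in 13.6%, 35.7% and 7.81% of the 32851 windows in the table. The S100a6 window held 1 CACGTG, which begins 14 bases past the start and occurs in 7.15% of windows. AAGGTCA, found in 4.72% of windows, was in neither, and the 2 windows shared no motif. A match is a match of letters, not a bound site. S100a6 lies on chromosome 3 within a run of S100 genes, with S100a4 and S100a5 on one side and S100a8 and S100a9 on the other, and Anxa2 lies on chromosome 9.

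Values are scaled intensity, brought to a common level over the arrays of a chip type, and are compared between arrays for one probe set and not between probe sets. Annexin A2 read at a like level on every array but the tumour's. On chip A (m14044_f_at) the CF-1 wild types read 16955 at 2 months and 16353 at 5 months, and the hybrid wild types 14889 and 12160. The cystic transgenic ovaries read 14308 in CF-1 and 17011 in the hybrid, the hybrid luteoma 14302, and the hCG-treated luteoma 17301. The tumour read 3366. Wild-type arrays averaged 15089 ± 2137 (SD, n = 4) and transgenic arrays without the tumour 15730 ± 1650 (SD, n = 4), and these groups overlapped over most of their range. The tumour was 3.61-fold below the next lowest array, the hybrid wild type of 5 months, and 4.64-fold below the median of the other 8. Its own strain and age without the transgene stood 4.86-fold above it, in a pair where 2.95% of tested probe sets were at least 3-fold lower in the tumour, and the hCG-treated transgenic ovary of the same strain and age 5.14-fold. The highest of the other 8 arrays was only 1.42 times the lowest, with a coefficient of variation of 11.7%.

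Chip B carries a different annexin A2 probe set, and it gave the same picture. The rule of choice fixed its tumour value as low too, so its likeness to chip A is no separate support. Wild types read 15610 and 12810 in CF-1 at 2 and 5 months, and 12838 and 11086 in the hybrid. Transgenic ovaries read 12076 and 11522 in the CF-1 and hybrid cystic arrays, 12466 in the hybrid luteoma and 15299 after hCG. The tumour, at 3537, lay 3.13-fold below the next lowest array, again the hybrid wild type of 5 months, and 3.57-fold below the median of the other 8. The wild-type mean was 13086 ± 1871 (SD, n = 4) and that of the transgenic arrays without the tumour 12841 ± 1684 (SD, n = 4). On both chip types the tumour alone stood apart, and the order among the other 8 arrays rested on differences of at most 1.42-fold. CF-1 wild type at 2 months and the hCG-treated luteoma were among the 3 highest arrays on both chips, and the hybrid wild type of 5 months was the lowest of the 8 on both.

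**Figure D1:**
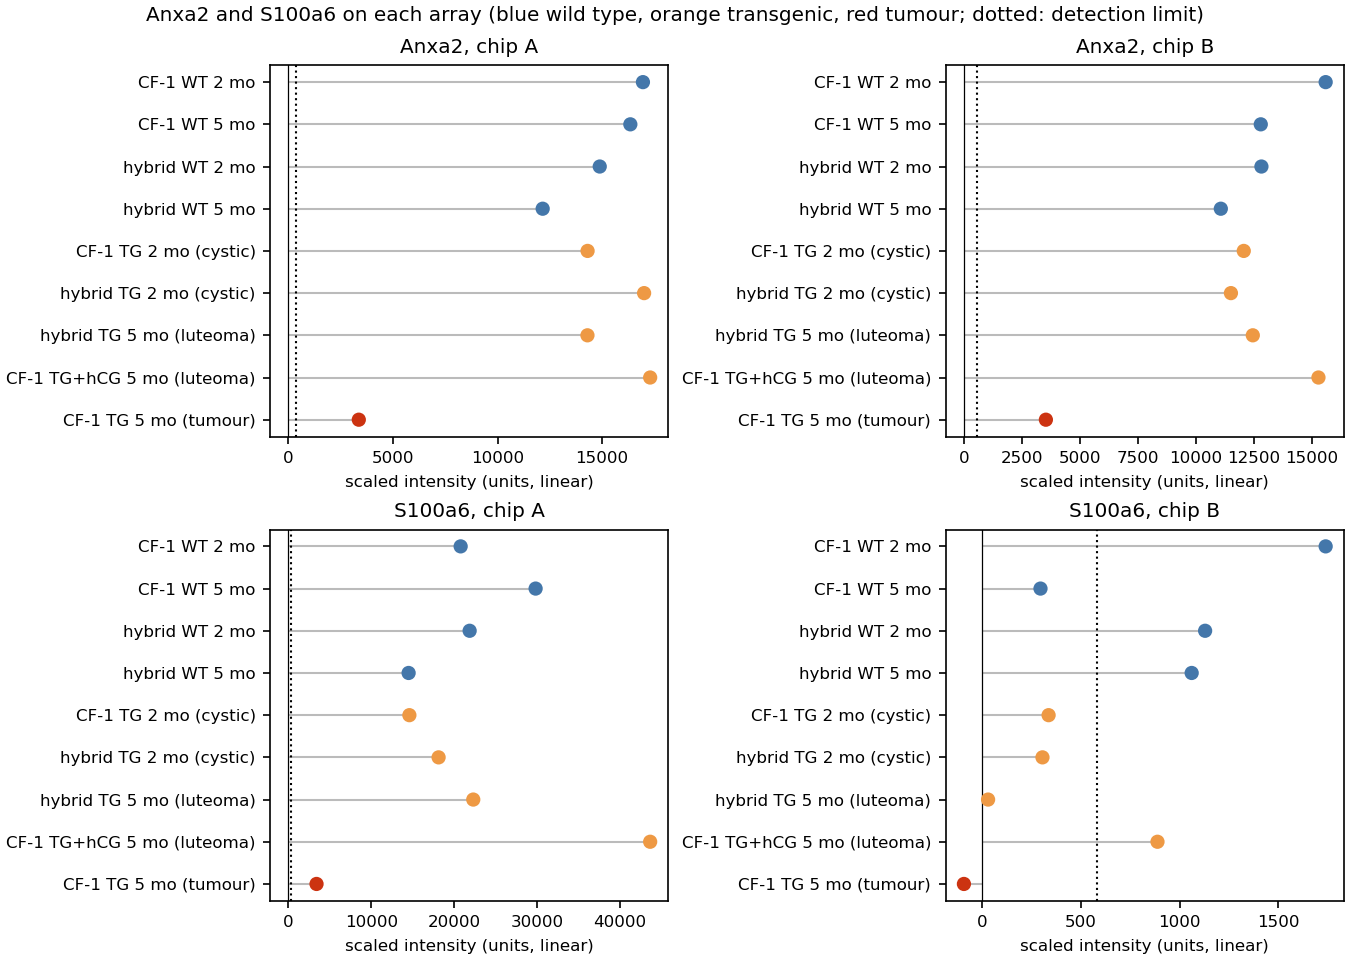
Scaled intensity (horizontal axis, linear units) of each Anxa2 and S100a6 probe set on the 9 arrays of its chip type, 1 point per array, with the detection limit dotted (367.6 units on chip A, 581.4 on chip B). The tumour, in red, is the lowest point by at least 3.13-fold in 3 panels; on chip B the S100a6 points of most transgenic arrays lie near or below the detection limit.

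S100a6 on chip A (m37761_s_at) was also high in every array but the tumour's, but varied more among the others. Wild types read 20773 and 29813 in CF-1 at 2 and 5 months, and 21857 and 14497 in the hybrid. Transgenic ovaries read 14589 in the CF-1 cystic array, 18113 in the hybrid cystic array, 22294 in the hybrid luteoma and 43630 after hCG. The tumour read 3390. It was 4.28-fold below the next lowest array, the hybrid wild type of 5 months, and 6.29-fold below the median of the other 8. It was 8.80-fold below its own wild type and 12.9-fold below the hCG-treated ovary. The wild-type mean was 21735 ± 6287 (SD, n = 4) and the mean of the transgenic arrays without the tumour 24657 ± 13035 (SD, n = 4), with a 3.01-fold range over all 8 and overlapping groups. The highest of the 9 was the hCG-treated array, where the deposited S100a6 value was the array's maximum; whether it was compressed there was not tested.

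The chip B probe set of S100a6 was dim and did not follow the chip A one. It read 1739 and 296 in the CF-1 wild types at 2 and 5 months, and 1129 and 1061 in the hybrid wild types. Transgenic arrays read 337 and 306 in the cystic ovaries, 30.8 in the hybrid luteoma, 888 after hCG and -91.5 in the tumour. Only 4 of 9 arrays reached the chip's detection limit of 581.4 units, and the tumour and the hybrid luteoma fell under the floor of 290.7 units, below which values were set to the floor and have no order. The tumour is therefore not set apart on this probe set, and 3 of the 4 probe sets carried the 3-fold tumour difference. Over the 9 arrays, log2 values of the chip A and B probe sets correlated at r = 0.98 for Anxa2 and at r = 0.31 for S100a6. Without the tumour these were 0.66 and 0.06 over 8 arrays. Both chips measured the same conditions, and suffixes such as _f_at and _s_at mark probe sets that can match related sequences, so a part of either signal may belong to a relative.

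**Figure D2:**
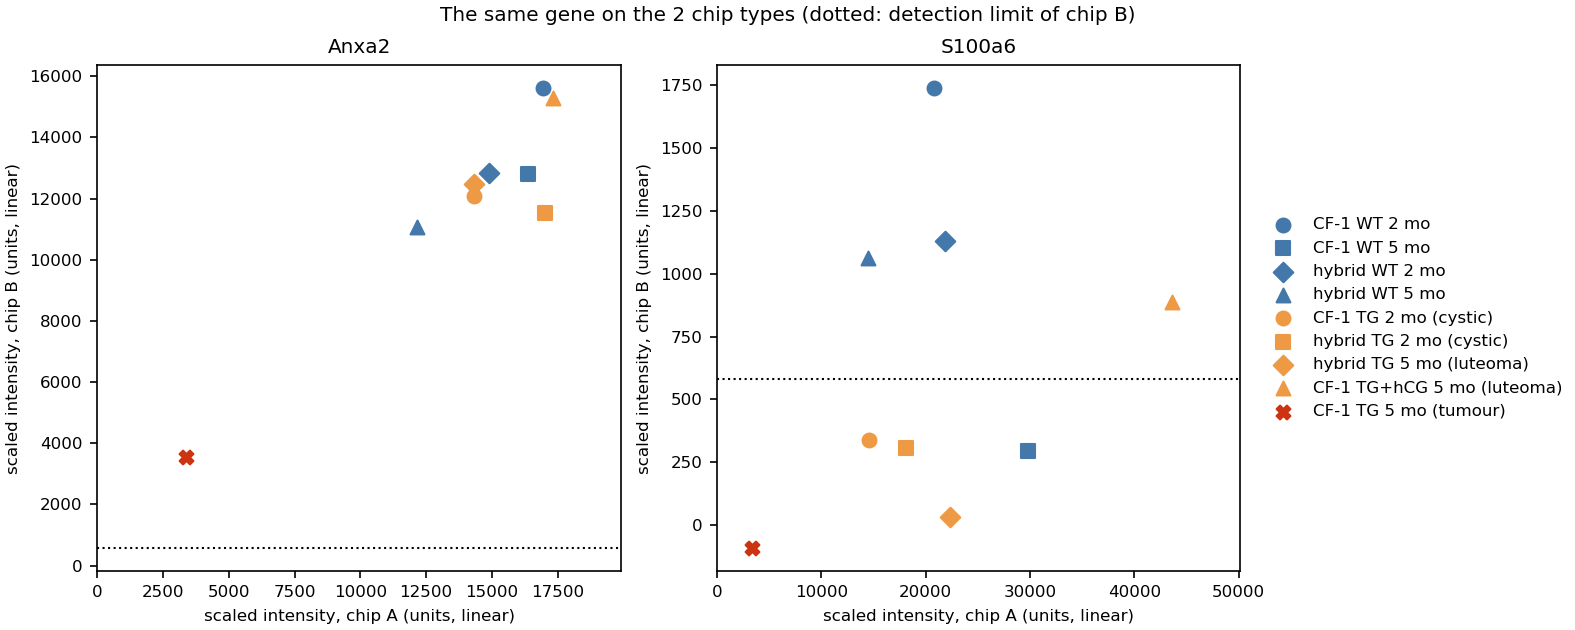
Scaled intensity on chip A (horizontal, linear units) against chip B (vertical, linear units) for Anxa2 and S100a6, 1 point per condition. The Anxa2 tumour point, at 3366 and 3537, lies far from a cluster of 8, while the 8 other S100a6 points scatter with no common trend (r = 0.06).

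Among 6408 probe sets well enough above background to be compared, 39 (0.609%) stood at least 3-fold below every other array in the tumour, and the rule selected from these, so the share says nothing about the members. By that fold S100a6 on chip A ranked 14th, Anxa2 on chip A 22nd and Anxa2 on chip B 37th. Just inside the threshold were Wfdc18 (318 units in the tumour against 954 in the next array), Anxa2 on chip B at 3.13-fold and Aoc1 at 3.14-fold or more, its tumour value being under the floor and set to it. Just outside it were Wt1, a granulosa and mesothelial transcription factor, at 2.96-fold, Entpd1 at 2.88-fold and Cd74 at 2.87-fold. Relative to the median of the other 8 arrays, the log2 tumour differences were -2.65 for S100a6 and -2.21 for Anxa2 on chip A, and -1.84 for Anxa2 and -0.91 for S100a6 on chip B, the last with the tumour at the floor. The rule of choice fixes all but the last of these as low.

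**Figure D3:**
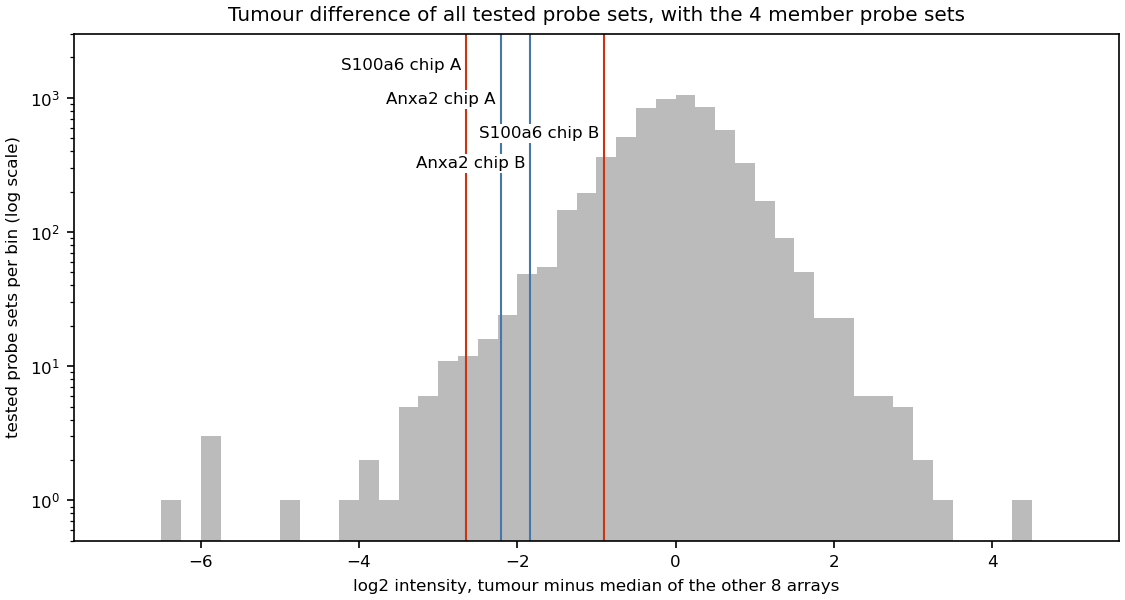
Number of tested probe sets (vertical axis, log scale) per bin of the log2 difference between the tumour and the median of the other 8 arrays (horizontal axis), with lines at the 4 Anxa2 and S100a6 probe sets. The lines of S100a6 on chip A and of Anxa2 on both chips stand at -2.65, -2.21 and -1.84, where the rule that chose them placed them, and that of S100a6 on chip B at -0.91.

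Whether either gene differed with the transgene, age or strain was tested on arrays other than the tumour's. The rule used these arrays too, since each had to stand at least 3-fold above the tumour. A gene already low in another transgenic ovary was less likely to be picked. Small transgene differences on the picked probe sets are thus in part favoured by the choice. Per chip type, limma was fitted to 7 arrays (4 wild type and 3 untreated transgenic, the tumour left out), with 3 residual degrees of freedom. Annexin A2 showed a transgenic minus wild-type log2 difference of 0.01 ± 0.19 (SE, limma adjusted p = 0.987) on chip A and of -0.11 ± 0.19 (SE, limma adjusted p = 0.880) on chip B. Their 95% intervals ran from -0.44 to 0.47 and from -0.55 to 0.34; the sign on chip A turned after quantile normalization (-0.11). S100a6 on chip A differed by -0.17 ± 0.30 (SE, limma adjusted p = 0.881), with an interval from -0.88 to 0.55. None of the 4 probe sets passed the adjusted threshold for the transgene, where 0.109% of all tested probe sets did.

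S100a6 on chip B gave the largest difference of the 4, -1.75 ± 0.47 on the log2 scale (SE, interval -2.88 to -0.62). Its limma p was 0.00819 before and 0.281 after adjustment over all probe sets, so it did not pass, and 4.85% of all tested probe sets were lower at an unadjusted p under 0.05. Among the fitted arrays only wild types reached the detection limit. The filter thus let this probe set in through the group where it is high. A lower transgenic value is in part favoured by that choice. The cystic ovaries and the hybrid luteoma were all under the detection limit. Set against that limit, their wild types were at least 2.99-fold (CF-1, 2 months), 1.94-fold (hybrid, 2 months) and 1.83-fold (hybrid, 5 months) higher. The size depended on the floor, at -0.97 with the floor doubled and -2.97 with a floor of 20 units. The CF-1 wild type of 5 months, at 296, lay as low as the cystic ovaries, so wild-type and transgenic values overlapped. The chip A probe set was 1.42-fold and 1.21-fold lower in the cystic pairs and 1.54-fold higher in the luteoma pair.

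Age and strain gave no call for either gene. For 5 minus 2 months the log2 differences were -0.13 and -0.09 for Anxa2 on chips A and B (limma adjusted p = 0.720 and 0.811), and 0.19 and -0.95 for S100a6 (limma adjusted p = 0.743 and 0.346). No probe set of the 6408 passed for age by limma (0%), and 1092 (17.0%) had an unadjusted p under 0.05. For hybrid minus CF-1 the differences were -0.11 and -0.13 for Anxa2 and -0.14 and 0.48 for S100a6, with limma adjusted p between 0.845 and 0.933, against 0.0156% of all tested probe sets that passed. In CF-1 wild types the chip B probe set of S100a6 read 1739 at 2 months and 296, under the detection limit, at 5 months, at least 2.99-fold lower, while the chip A one was 1.44-fold higher. Leaving out that CF-1 array of 5 months, the fitted age difference of S100a6 on chip B was -0.08.

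**Figure D4:**
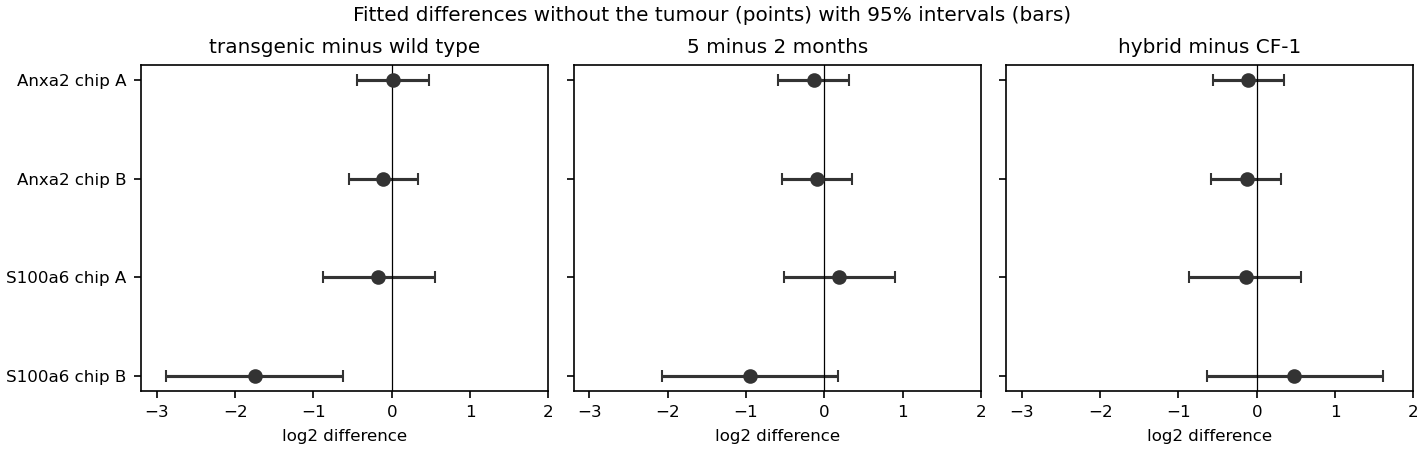
Fitted log2 differences (horizontal axis) for genotype, age and strain on the 7 arrays without the tumour and the hCG-treated ovary, as points with 95% intervals as bars, for each of the 4 probe sets. The interval that excludes 0 is that of S100a6 on chip B for genotype, -2.88 to -0.62, with an adjusted p of 0.281. The filter on low values favoured its direction.

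hCG treatment was present on 1 array per chip type and allows no test. The hCG-treated ovary was a CF-1 transgenic ovary of the same age as the tumour, and neither gene was low in it. For Anxa2 and for S100a6 on chip A the rule fixed this in advance. Every other array had to stand at least 3-fold above the tumour. Annexin A2 was 1.06-fold above the untreated wild type of that strain and age on chip A and 1.19-fold on chip B. S100a6 was 1.46-fold above it on chip A, a log2 difference of 0.55 that was 0.21 after quantile normalization. On chip B it read 888 against 296, at least 1.53-fold higher, since the wild type was under the detection limit. Against the untreated hybrid luteoma S100a6 was 1.96-fold higher on chip A and at least 1.53-fold higher on chip B, and Anxa2 1.21-fold and 1.23-fold higher. The hCG-treated array was the highest of the 9 for both chip A probe sets, a place it held for 12.8% of all tested probe sets; after quantile normalization CF-1 wild type at 2 months was the highest for Anxa2. No probe set of either gene set both luteomas 2-fold apart from the other 7 arrays, where 0.0312% of tested probe sets were lower and 0.0468% higher by that rule.

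Among the other annexins, which share the calcium-dependent membrane-binding core, 7 of 11 listed genes were on the chips and 5 were well enough above background. The tumour was the lowest of 9 arrays for 3 of these 5, against 18.1% of all tested probe sets. The gaps were narrower than for annexin A2, but the rule picked annexin A2 for a wide gap. Annexin A1, a phospholipid-binding protein known for its anti-inflammatory role, read 1492 in the tumour and 2618 to 6351 elsewhere, 1.75-fold below the next array. Annexin A7 read 2176 against 4010 to 4681 (1.84-fold) on one probe set, while its other probe set, at 1003, lay inside the range of 798 to 1600. Annexin A5, the binder of exposed phosphatidylserine, read 2798 against 2947 to 5929. Annexin A4, at 859, and annexin A6, at 5149, were inside the ranges of the other arrays. Anxa3 and Anxa8 were under the floor in the tumour and in most other arrays. The median log2 tumour difference was -0.76 over the 5 genes and -0.008 over all tested probe sets. No annexin passed the adjusted threshold for the transgene without the tumour, and the lowest unadjusted limma p was 0.0306 for Anxa4 (log2 difference -0.44, adjusted p = 0.423).

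Of 14 other listed S100 genes, 9 were on the chips and 5 could be compared. The tumour was lowest for 2, against 18.1% of all tested probe sets, and highest for 1, against 21.0%. The median log2 tumour difference was -0.76. S100a10, the partner of annexin A2 in its surface complex, read 4655 in the tumour against 6182 to 9713 elsewhere on chip A, 1.33-fold below the next array. Its chip B probe set read 2837 against 5926 to 9557, a gap of 2.09-fold. Both S100a10 probe sets were thus lowest in the tumour. Without the tumour their fitted transgenic minus wild-type log2 differences were -0.06 and 0.05 (limma adjusted p = 0.924 and 0.957).

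S100a4, a neighbour of S100a6 on chromosome 3 and a regulator of myosin and cell motility, read lower in the other untreated transgenic ovaries too. It read 15774 and 9120 in the CF-1 wild types and 9170 and 7586 in the hybrid wild types. It read 3762 and 3767 in the cystic ovaries, 3732 in the hybrid luteoma, 8933 after hCG and 2209 in the tumour. The 3 untreated transgenic arrays without the tumour all lay below the 4 wild types, with a fitted log2 difference of -1.42 ± 0.24 (SE, limma adjusted p = 0.126). S100g, a cytosolic calcium buffer, read 1053, 344, 1381 and 1147 in the wild types in the same order, 1699 after hCG, and was under the floor in all 4 untreated transgenic arrays, the tumour included. Its fitted difference was -2.49 ± 0.34 (SE, limma adjusted p = 0.112), so neither gene passed. S100g entered the test through wild types and the hCG-treated array alone, which favours this direction. The floor gave its fitted transgenic arrays a common value, so their spread is not measured by the SE or p. S100a13 read 3239 in the tumour, 1.37-fold above all others, on chip A, but 432 on chip B, 1.35-fold below all others, and these probe sets disagree. S100b, at 437, was inside the range of 318 to 732, and S100a3, S100a8, S100a9 and S100a14 were too dim to compare.

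**Figure D5:**
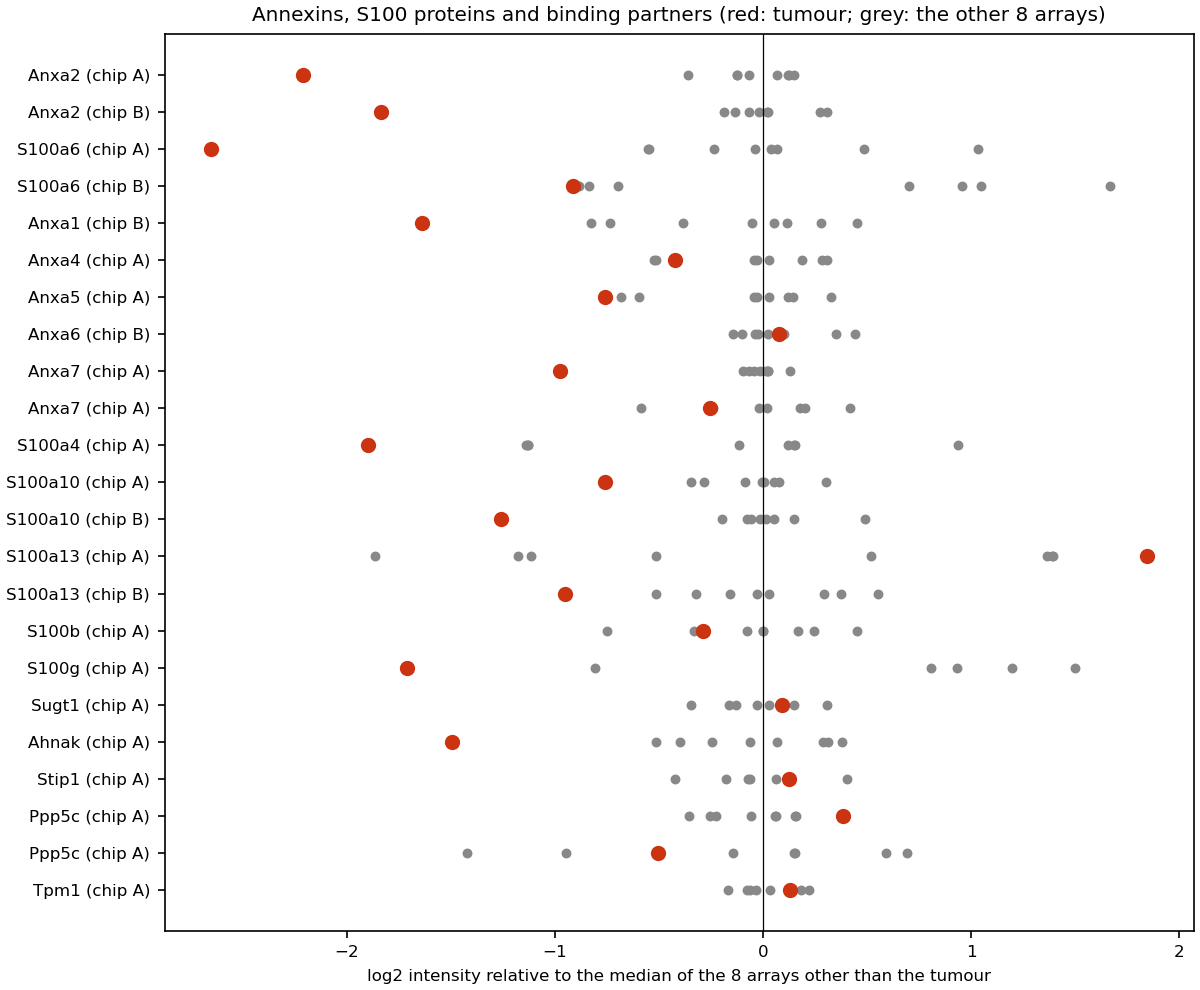
Log2 intensity relative to the median of the 8 arrays other than the tumour (horizontal axis) for each tested probe set of Anxa2, S100a6, other annexins, other S100 genes and binding partners, with the tumour in red and the other 8 arrays in grey. The red points of Anxa2 on both chips (-2.21 and -1.84) and of S100a6 on chip A (-2.65) lie at least 3.13-fold below their lowest grey point. The rule that chose them required such a gap. Among the relatives and partners the widest gap is 2.09-fold, for S100a10 on chip B.

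Listed binding partners of annexin A2 or S100a6 did not share a direction. Of 7 compared, the tumour was lowest for S100a10 and Ahnak and highest for Ppp5c, against 18.1% and 21.0% of all tested probe sets. The median log2 difference was 0.09. Ahnak, a giant scaffold protein that binds the annexin A2 and S100a10 complex under the membrane, read 2533 in the tumour and 5000 to 9284 elsewhere, 1.97-fold below the next array. Its transgenic minus wild-type log2 difference without the tumour was -0.48 ± 0.17 (SE, limma adjusted p = 0.407). Ppp5c, a phosphatase, read 983, 1.17-fold above the next array, on one probe set and lay inside the range on the other. The co-chaperones Sugt1 (2362) and Stip1 (3717), tropomyosin Tpm1 (10404) and annexin A6 were inside the ranges of the other arrays.

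In plasminogen activation, the protease system that the annexin A2 complex serves at the cell surface, 3 of 7 measured genes could be compared. The activator Plat read 945 in the tumour against 1637 to 2930, 1.73-fold below the next array. The urokinase receptor Plaur, at 699, and the plasminogen receptor Plgrkt, at 2263, were inside the other arrays' ranges of 329 to 792 and 1441 to 3668. Plau, Plg, Serpinb2 and Serpinf2 were too dim to compare. The median log2 tumour difference over the 3 was 0.20, and none of them passed for the transgene.

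Beyond direct partners, the tumour was the lowest array for 5 of 11 compared genes of the cell cortex and cytoskeleton, against 18.1% of all tested probe sets, with a median log2 difference of -0.29; Vim, the intermediate filament of mesenchymal cells, read 3699 against 5374 to 11519. The actin linker radixin (Rdx) read 1888 against 2301 to 4094, and the nuclear lamin Lmna was highest in the tumour, at 2776 against 1469 to 2179. Of 10 other calcium-binding genes the tumour was lowest for 1, the calmodulin gene Calm3, at 496 against 1308 to 2455, and the median difference was 0.15. The chaperone calreticulin (Calr), at 11429, and Rcn1, at 2231, were inside the other arrays' ranges.

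Markers of several ovarian cell types were also low in the tumour, and their part in the values of either gene was not tested. Summed over 14 surface and oviduct epithelial markers, the tumour read 4299 units against 17992 to 35431 on the other arrays. All 13 that could be compared were below the median of the others. Their median log2 difference was -0.83, against -0.008 over all tested probe sets. Krt18, Krt19, Cdh1 and Ovgp1 were under the floor in the tumour alone. Msln, Muc1, Cldn3 and Cldn4 were under it in the tumour and on other arrays too. Ovgp1, the oviduct glycoprotein, made up much of the sum elsewhere, at 5823 to 19169. The summed luteal and steroidogenic markers read 24256 against 45815 to 123057, with 4 of 5 lowest in the tumour. Over all tested probe sets the tumour was lowest for 18.1% and highest for 21.0%. The theca enzyme Cyp17a1 read 1727 against 3968 to 9578. The summed oocyte markers read 1526 against 2441 to 8322, and the adipocyte markers 3507 against 3559 to 10975. Zp2 and Zp3 were under the floor in the tumour alone, and Zp1 on other arrays too. Summed granulosa markers were highest in the tumour, at 72407 against 32543 to 58413, but its members differed. Of the 8, Inhba, Inhbb, Fst and Hsd17b1 were highest in the tumour, Inha and Gja1 were inside the range, and Wt1 (1219 against 3611 to 5767) and Amh (415 against 576 to 3913) were lowest.

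Summed markers of fibroblasts and of 3 other cell types were inside the range of the other arrays. The tumour's fibroblast markers summed to 50535 (44952 to 65225 elsewhere), its macrophage markers to 40786 (30179 to 88385, with Lyz2 at 21815 in the tumour), its endothelial markers to 8010 (6601 to 21432) and its smooth muscle markers to 16814 (16231 to 35294). Yet all 5 compared endothelial and all 5 compared smooth muscle markers were below the median of the others. Their median log2 differences were -0.56 and -0.71, against -0.16 for fibroblast and 0.34 for macrophage markers. Within these lists the antigen-presentation genes Cd74 (860 against 2471 to 12507) and H2-Aa (422 against 1386 to 9850) and Cd14 (1233 against 1237 to 1868) were lowest in the tumour, as were Lum and Col3a1, Cdh5, and Acta2. The fibroblast genes Col1a2 and Fbln1 were highest in it. RNA quality readings did not set the tumour apart on chip A. Its beta-actin 3′ to 5′ ratio was 2.46, within the 1.50 to 2.78 of the others, and its Gapdh ratio of 0.855 lay within 0.782 to 1.35; on chip B the Gapdh ratio of 0.871 was just under the others' 0.889 to 1.30.

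The tumour, the hybrid luteoma and CF-1 wild type at 5 months shared a raised reading of the control probe set BioDn-5_st, at 782, 812 and 768 units on chip A against 194 to 387 on the other 6 arrays. On chip A, annexin A2 read 14302 and 16353 in the latter pair, and S100a6 22294 and 29813. On chip B the same conditions read 533, 719 and 531 units for this control, against 51.0 to 330 on the other 6 arrays. S100a6 on chip B was lowest in these same conditions, at -91.5, 30.8 and 296, against 306 to 1739 elsewhere. Whether the control reading bears on either gene was not tested. The share of chip A probe sets above the detection limit was 54.3% in the tumour, with no array lower, and at most 57.7% elsewhere. On chip B it was 29.0% in the tumour, within a range of 28.0% to 29.5%. Trimmed mean intensity before scaling ranged from 907 to 1756 over the arrays of chip A and from 542 to 921 on chip B.

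The tested genes whose 9 values most resembled annexin A2 on chip A were Star (r = 0.994), the cholesterol carrier of steroid synthesis, Me1 (0.990), the noncoding RNA Neat1 (0.986), the prostaglandin F receptor Ptgfr (0.979) and the epithelial lipoprotein receptor Lsr (0.974). Over the 8 arrays without the tumour r was 0.91, 0.77, 0.89, 0.51 and 0.50. On chip B the nearest were Entpd1 (0.983), Thbd (0.931), Pnp (0.920), Aebp1 (0.917) and Mindy1 (0.907), with r of 0.86, -0.13, 0.34, 0.34 and 0.03 without the tumour. Likeness to annexin A2 thus rested in most of these on the 1 tumour array. For S100a6 on chip A they were Uqcr10 (0.972), Ppp2r5a (0.955), Ephx2 (0.943), Ptk2b (0.940) and Avpi1 (0.937), with 0.96, 0.88, 0.73, 0.77 and 0.71 without the tumour. For S100a6 on chip B they were Cfap20 (0.921), Postn (0.913), Hmgn2 (0.908), Snx2 (0.895) and Cbr2 (0.884), and r without the tumour was between 0.87 and 0.97. The lists for the 4 probe sets shared no gene. Annexin A2 and S100a6 on chip A correlated at 0.92 over 9 arrays and at 0.64 over 8. The points of each correlation share the arrays and their scaling, and the genes were picked as the highest of all those tested, so these are descriptions without a test.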

How the data were processed

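The authors deposited 1 intensity value per probe set and array on a linear scale, per the deposited value tables, with 13.6% to 30.1% of the values of an array below 0. The software, scaling and background step behind these intensities are not given in the sources used here. Groups, ages and pathology were taken from the labels. Genes were named from the platform annotation, with symbols updated by Entrez number for 5551 probe sets of chip A and 1993 of chip B. The members and all gene lists were chosen with earlier results of these data known.

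Within each chip type, arrays were scaled to the mean of their trimmed means (2nd to 98th percentile). Values under a floor (183.8 units on chip A, 290.7 on chip B) were set to it before log2 was taken, so fold changes of dim probe sets are understated. Leaving out 55 control probe sets and 21 present on both chips, 6408 probe sets (4122 and 2286) with at least 2 arrays at or above a detection limit of 2 floors were tested. All 4 probe sets of Anxa2 and S100a6 passed. S100a6 on chip B passed through 4 arrays, which were wild types and the hCG-treated one. limma 3.58.1 in R 4.3.3 was fitted with genotype, strain and age as additive terms to 7 arrays per chip type, with Benjamini-Hochberg adjustment over both chips and a threshold of 0.05. The tumour and the hCG-treated array were left out. Steps were tested on simulated data. For the limma fit the simulated noise was smaller than the observed spread and no floor was applied. Its precision at the real spread or near the floor was therefore not checked. Single arrays were compared by fold only, with 3-fold as the rule of size (2-fold for the luteoma pair). Their number, 1 per condition and chip type, limits the precision.

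Named were every probe set of both genes, every measured annexin, S100, binding partner and plasminogen gene, and the 5 genes nearest in pattern to each member. From the cortex and calcium-binding lists the 3 genes farthest from the median of the other arrays in the tumour were named. Among a gene's probe sets, the one with the highest mean stood for it in list counts. Alternatives were quantile and 75th percentile scaling, other floors (doubled, 20 units), no filter, trended robust variances, the tumour included, and each array left out.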

Additional observations from a re-analysis of the deposited data

Results flagged for a closer look

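S100a6 on chip A moved in opposite directions between single arrays in 2 places. From 2 to 5 months its log2 intensity differed by 0.52 in CF-1 wild types (20773 to 29813) and by -0.59 in hybrid wild types (21857 to 14497). Transgenic minus wild type in hybrids was -0.27 at 2 months, where the ovary was cystic, and 0.62 at 5 months, where it was a luteoma. Each direction rests on 1 array against 1, and the difference between the directions was not tested.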

How the results depend on the processing

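The 3-fold tumour difference of Anxa2 on both chips and of S100a6 on chip A was met under each of the scalings and floors run; the fold below the next lowest array for Anxa2 on chip A was 4.27 after quantile normalization instead of 3.61. None of the 168 alternative fits of the 4 probe sets passed the adjusted threshold (lowest limma adjusted p = 0.0950). This number takes in the fits with the tumour included, which use values the rule had used and are no test of either gene. For the transgene, 7 of all probe sets passed by limma; 0 passed with the floor doubled (623 at an unadjusted p under 0.05), 0 with a floor of 20 units (613), 1 without the filter, 33 with trended and robust variances and 0 with the tumour included (642). For age, 1 passed with the tumour included instead of 0. For strain, 3 passed after quantile normalization, 2 with 75th percentile scaling, 0 without the filter (604 unadjusted), 3 with trended and robust variances and 2 with the tumour included, instead of 1. Leaving out 1 array at a time gave 0 to 3 calls for the transgene, 0 to 222 for age (222 without the hybrid wild type of 5 months) and 0 to 1 for strain. Quantile normalization turned the sign of the log2 difference of Anxa2 on chip A for genotype (-0.11) and strain (0.02), of Anxa2 on chip B for age (0.05) and of S100a6 on chip A for strain (0.06), and moved the hCG-treated minus wild-type difference of Anxa2 on chip B to 0.06. The cause of these shifts was not tested. With the tumour included, Anxa2 on chip A was -0.52 for genotype and 0.43 for strain, and Anxa2 on chip B 0.31 for strain. S100a6 on chip A was -0.47 for age and 0.52 for strain. The tumour array is a CF-1 transgenic array of 5 months, and the rule picked these probe sets for their low values in it. The shifts with the tumour included are thus built in by the choice and are no test of either gene.

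Without 1 array, the genotype difference ranged from -0.08 to 0.21 and from -0.26 to 0.007 for Anxa2 on chips A and B, and from -0.45 to 0.17 and from -2.13 to -1.38 for S100a6. The age difference ranged from -0.27 to -0.04 and from -0.25 to -0.01 for Anxa2, and from -0.15 to 0.47 and from -1.32 to -0.08 for S100a6. The strain difference ranged from -0.31 to 0.03 and from -0.25 to -0.06 for Anxa2, and from -0.48 to 0.19 and from -0.38 to 0.85 for S100a6. Replicate numbers mark 1 sample per group and pair nothing, but strain and age match wild-type to transgenic arrays in 3 pairs; leaving out the unmatched CF-1 array of wild type at 5 months keeps these pairs alone, and gave genotype differences of 0.06 and -0.12 for Anxa2 on chips A and B and -0.05 and -2.04 for S100a6 (limma adjusted p = 0.917, 0.842, 0.949 and 0.0950). Readings of S100a6 on chip B near the floor of 290.7 units have little precision, and the filter favoured a lower transgenic value there.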
